A study of Mus musculus with 4 samples.

Results

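The semaphorins, the plexins and the neuropilins form the ligands and receptors of one axon guidance system, and their RNA was read in brains of mouse embryos at embryonic day 15. Members were taken by symbol from the protein-coding genes of the deposited table. They are 20 semaphorin genes, 9 plexin genes, 2 neuropilin genes and Plxdc1 and Plxdc2, which are named for a plexin domain, 33 of 20421 genes in all. The genotypes compared were labelled FOXM1f/+;Nestin-Cre and WT. Both were C57BL/6, and the source label reads brain, with no region named. The first genotype joins a FOXM1 allele marked f/+ with Nestin-Cre, a recombinase driver active in neural progenitors. Details of the allele are in none of the labels. GEO lists 4 samples, 2 per genotype, but the table has 1 column of reads per genotype, so no replicates could be compared. The design text speaks of triplicates, and which sample, sum or pool a column holds is not known, so each column is treated as 1 library. The titles of the WT samples name nestin for one and foxm1 for the other, so the WT library may hold an animal with either allele alone, and pooling of embryos is not stated. For short, the FOXM1f/+;Nestin-Cre column is called transgenic.

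Semaphorins are secreted or membrane-bound proteins that steer axons, dendrites and migrating neurons, mostly by local collapse of the cytoskeleton. Plexins are their main receptors: the cytoplasmic part of a plexin acts on small GTPases of the Ras and Rap families. Secreted class 3 semaphorins usually reach A plexins through a neuropilin that binds the ligand, whereas membrane-bound semaphorins of classes 4 to 7 bind plexins directly. In the embryonic cortex the system is known for polarity and radial migration of new neurons, for the paths of callosal and corticofugal axons, and for vessel growth.

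The libraries held 17856653 transgenic and 17543705 WT reads. Foxm1 had 1289 transgenic and 1139 WT reads. Xist had 9628 reads in the transgenic library against 5 in WT, while Y-linked Eif2s3y had 0 transgenic and 1266 WT reads, so the genotypes also differ in sex content. The forebrain genes Emx1 (2512 transgenic and 2101 WT reads) and Neurod6 (11889 transgenic and 11581 WT) were high in both libraries. Choroid plexus markers summed to 24.6 CPM, the count scaled to a common library total, in the transgenic library against 719.9 CPM in WT. With 1 column per genotype no test could be made and no p-value is given, and a gene is called tested here where it passed the expression minimum. Intervals in parentheses are 95% exact intervals that cover counting error and leave out the spread between animals, which was not measured.

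Differences in the families were small, and most pointed down. Of 33 members, 30 passed a minimum mean of 1 CPM. Their log2 ratios, transgenic over WT, ranged from -1.05 for Sema3b to 0.47 for Sema3g. The median was -0.15, beside -0.01 over all 14557 genes tested. Ratios lay below 1 for 20 of the 30 and above 1 for 10, where 51.6% of all tested genes lay below and 48.4% above. No member reached 1.5-fold higher, where 2.53% of all tested genes did. Sema3b alone reached 1.5-fold lower, where 5.23% of all tested genes did, so 1 of 30 members is near the background share. It also passed 2-fold lower, where 1.83% did, and no member was 2-fold higher, where 0.522% were. The just-missed member was Plxdc2 at 1.49-fold lower. By the counting interval, 18 of the 30 lay wholly below 1 and 4 wholly above, where 19.2% and 16.5% of all tested genes did. Deeply read genes have narrow intervals, and 26 members had a mean of at least 10 CPM. None of the 26 reached 1.5-fold, where 0.335% of all genes at that level were higher and 0.848% lower by that much. Among the same genes 21.1% of intervals lay below 1 and 20.2% above. With TMM or RLE scaling 15 intervals lay below 1 and 4 above, since those of Plxna2, Plxna4 and Plxnb2 then spanned 1.

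**Figure D1:**
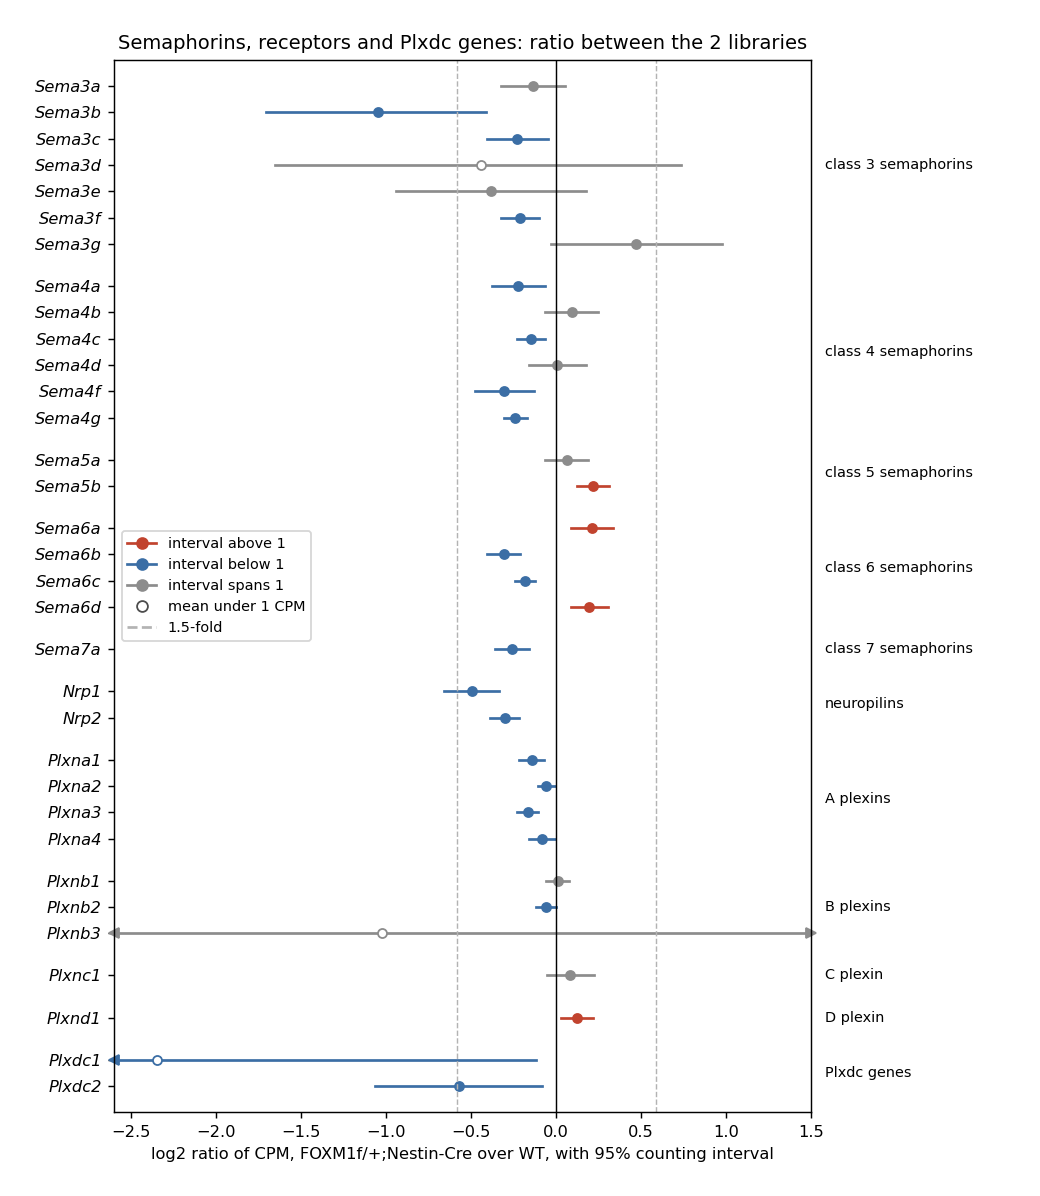
Log2 ratio of CPM, FOXM1f/+;Nestin-Cre over WT, for the 33 members by subfamily, with 95% counting intervals as bars (arrows where a bar leaves the axis) and dashed lines at 1.5-fold. Both neuropilins and the 4 A plexins sit left of 0, while Sema5b, Sema6a, Sema6d and Plxnd1 are the members whose intervals lie wholly above 1.

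Levels were compared between genes per kilobase of exon, the union of exons in GENCODE M21. Sema6c, a membrane semaphorin, was first with 41.4 CPM per kb in the transgenic library against 46.9 in WT. Plxnb2, a plexin of dividing progenitors and many epithelia, was second with 34.3 transgenic and 35.7 WT CPM per kb. The semaphorin receptor Plxna3 followed with 29.2 transgenic and 32.8 WT CPM per kb. The lipid-anchored Sema7a had 26.6 transgenic and 31.9 WT CPM per kb. Thus 3 of the 4 highest members were lower in the transgenic library by their intervals at every scaling tried. By plain CPM, 19.2% of all tested genes had intervals below 1. Of the secreted ligands, Sema3f ranked highest, at 13.6 CPM per kb in the transgenic library against 15.8 in WT. At the low end, Plxnb3, a plexin known from oligodendrocytes, had 1 read in the transgenic library against 2 in WT, and Sema3d had 12 transgenic and 16 WT reads. Nrp2 had 9.55 transgenic and 11.8 WT CPM per kb, above the 3.12 transgenic and 4.40 WT CPM per kb of Nrp1. With the longest transcript as the length, 9 of the 10 highest members were the same.

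**Figure D2:**
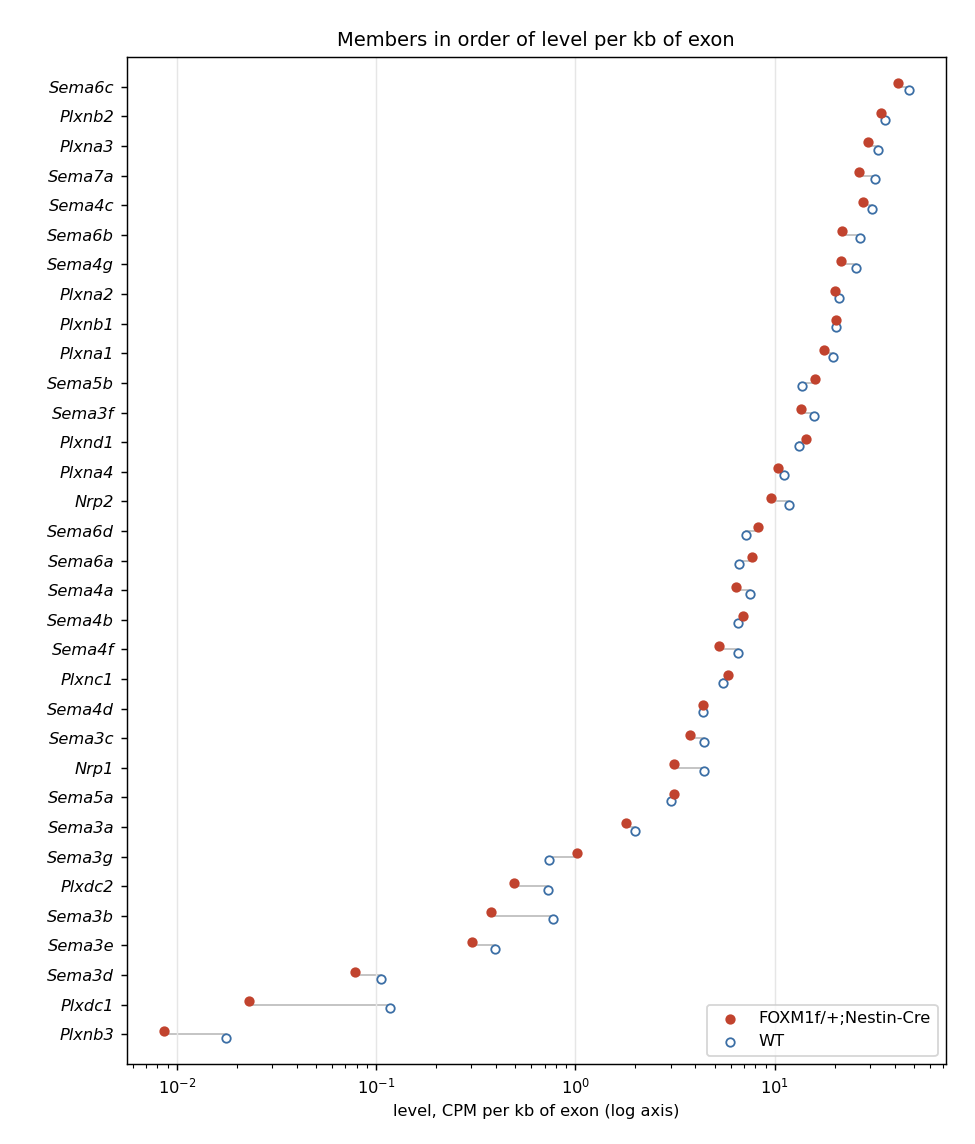
Level of each member in CPM per kb of exon on a log axis, filled points for FOXM1f/+;Nestin-Cre and open points for WT, in order of the mean. Levels run from 41.4 (transgenic) and 46.9 (WT) for Sema6c to under 0.1 in both libraries for Plxnb3, and in most rows the gap between the libraries is small beside the range between genes.

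Sequence upstream of the start site was read for the members with an entry, to show the letters beside the measured ratios. RefSeq promoter entries (GRCm38.p6) matched 26 of 33 members by symbol, and the 250 bases before the start nearest the deposited gene's 5′ end were searched on both strands. The forkhead core was searched as TAAACA. The cell cycle homology element was searched as TTTGAA. The box named CCAAT was searched by its own letters, and the GC box was searched as GGGCGG. No match in the windows shown overlaps a match of another motif. The start used for Sema3a lies 271370 bases from the deposited one, and that for Sema4d 37064 bases. The windows shown are of some of the members whose RefSeq start equals the deposited start. Plxnd1 and Sema6d were higher, Sema6b, Sema4f and Sema7a were lower, and the interval of Sema3e spanned 1. Plxna3 and Sema4a, which were lower, and Sema5a, whose interval spanned 1, have equal starts too but are not shown. Capitals mark motif matches on either strand.
Plxnd1, chr6:115995006-115995255 (- strand): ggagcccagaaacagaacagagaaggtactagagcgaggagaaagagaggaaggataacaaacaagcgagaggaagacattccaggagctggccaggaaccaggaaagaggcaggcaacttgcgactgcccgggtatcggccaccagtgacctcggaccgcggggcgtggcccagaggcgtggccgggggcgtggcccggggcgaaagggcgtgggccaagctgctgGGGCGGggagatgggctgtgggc
Sema6d, chr2:124089719-124089968 (+ strand): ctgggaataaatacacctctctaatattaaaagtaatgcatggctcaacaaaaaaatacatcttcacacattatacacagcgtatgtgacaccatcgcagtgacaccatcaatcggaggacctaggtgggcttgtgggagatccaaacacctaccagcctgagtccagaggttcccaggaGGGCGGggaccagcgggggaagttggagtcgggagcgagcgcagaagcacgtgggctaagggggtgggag
Sema6b, chr17:56140344-56140593 (- strand): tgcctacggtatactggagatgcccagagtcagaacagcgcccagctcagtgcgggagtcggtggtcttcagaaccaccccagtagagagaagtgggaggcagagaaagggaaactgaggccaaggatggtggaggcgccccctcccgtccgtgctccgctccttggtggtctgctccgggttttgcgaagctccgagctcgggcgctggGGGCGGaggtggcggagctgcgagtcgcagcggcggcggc
Sema4f, chr6:82939770-82940019 (- strand): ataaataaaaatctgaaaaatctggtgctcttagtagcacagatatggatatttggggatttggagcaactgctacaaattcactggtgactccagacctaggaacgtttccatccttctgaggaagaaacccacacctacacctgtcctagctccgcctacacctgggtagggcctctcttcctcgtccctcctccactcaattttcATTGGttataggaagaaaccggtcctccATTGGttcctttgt
Sema7a, chr9:57939862-57940111 (+ strand): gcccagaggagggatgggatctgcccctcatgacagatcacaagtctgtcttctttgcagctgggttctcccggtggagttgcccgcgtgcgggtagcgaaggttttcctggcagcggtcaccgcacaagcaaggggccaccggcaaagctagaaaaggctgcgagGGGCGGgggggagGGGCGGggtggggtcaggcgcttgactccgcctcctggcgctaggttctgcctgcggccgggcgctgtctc
Sema3e, chr5:14025026-14025275 (+ strand): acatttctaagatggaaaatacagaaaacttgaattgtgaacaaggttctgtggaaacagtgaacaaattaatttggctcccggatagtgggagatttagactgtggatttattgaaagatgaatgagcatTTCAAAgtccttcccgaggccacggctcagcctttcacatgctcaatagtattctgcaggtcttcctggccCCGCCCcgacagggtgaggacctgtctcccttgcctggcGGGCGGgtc
A GC box is marked in each of these windows other than that of Sema4f, which holds 2 CCAAT boxes on the opposite strand. Sema3e alone of the 6 holds a cell cycle homology element. Over the 26 matched members, the forkhead core was found in 1 (Sema4d), where 6.81% of 10144 tested genes with an entry hold it. The cell cycle homology element was found in 3 (Sema3a, Sema3e and Sema3g), where 9.91% hold it. The intervals of these 4 genes all spanned 1. CCAAT was found in 4 members, where 36.4% of the tested genes hold it, and the GC box in 20, where 61.3% hold it. A match is a description of letters and was not tested as a binding site.

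Secreted class 3 semaphorins were lower where the reads allowed a direction. Their summed level was 132 CPM in the transgenic library against 153 CPM in WT, a ratio of 0.868 (0.821 to 0.918). Sema3b (chr9:107597674-107609229, GRCm38), a ligand for neuropilins that also guides commissural axons, had 32 reads in the transgenic library against 65 in WT. That is 1.79 transgenic against 3.70 WT CPM, 2.07-fold lower (1.33 to 3.26), the only call at 1.5-fold. Sema3f (chr9:107681500-107710475), a repellent that signals through Nrp2, lies 72.3 kb from Sema3b on the same strand. It had 1262 transgenic and 1437 WT reads, 70.7 transgenic against 81.9 WT CPM, and was 1.16-fold lower (1.07 to 1.25). The ratio of Sema3b was 0.561 (0.353 to 0.875) times that of its neighbour, a pair picked after its values were seen. Among 16 tested rows within 100 kb of Sema3b, itself included, 2 were at least 1.5-fold lower, Sema3b and Gm9917. The share over all tested genes was 5.23%.

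The other class 3 genes were read at moderate or low depth. Sema3c (chr5:17574281-17730268), a ligand with attractive effects on cortical axons, had 481 transgenic and 554 WT reads, 26.9 transgenic against 31.6 WT CPM, and was 1.17-fold lower (1.04 to 1.33). Sema3a, the prototype repellent, had 446 reads in the transgenic library against 482 in WT, with a ratio of 0.909 (0.797 to 1.04). Sema3e, which binds Plxnd1 without a neuropilin, had 50 transgenic and 64 WT reads, with a ratio of 0.768 (0.519 to 1.13). A difference was not detectable at this depth for either gene. Sema3g, a semaphorin of endothelium, had 83 reads in the transgenic library against 59 in WT, and its ratio of 1.38 (0.978 to 1.96) was the highest of all tested members although its interval spanned 1. Sema3d stayed under the minimum. Sema3d, Sema3a, Sema3e and Sema3c lie together in 5.35 Mb of chromosome 5. All 4 had ratios below 1, where 51.6% of all tested genes did, and Sema3c alone had an interval wholly below 1. Ratios of the other genes in that span are not given here.

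Class 4 semaphorins, membrane ligands of B plexins among other receptors, had 4 of 6 intervals below 1 and none above. Over all tested genes, 19.2% of intervals lay below and 16.5% above. Sema4g (chr19:44989101-45003397) was the most abundant by reads, with 3330 in the transgenic library against 3864 in WT. It stood at 186 transgenic against 220.2 WT CPM and was 1.18-fold lower (1.13 to 1.24). Sema4f (chr6:82911885-82939769), which is found at glutamatergic synapses, had 497 transgenic and 604 WT reads and was 1.24-fold lower (1.10 to 1.40). Sema4a (chr3:88435959-88461182), best known from retina and immune cells, had 620 transgenic and 711 WT reads and was 1.17-fold lower (1.05 to 1.30). Sema4c (chr1:36548639-36558349), a ligand of Plxnb2, had 2265 transgenic and 2471 WT reads, 127 transgenic against 141 WT CPM, and was 1.11-fold lower (1.05 to 1.18). Exons of Sema4c share 334 bases with D430040D24Rik on the other strand (95 transgenic and 88 WT reads), and the strand setting of the counting is not given. Sema4b had 699 reads in the transgenic library against 645 in WT, with a ratio of 1.06 (0.955 to 1.19). Sema4d, the main ligand of Plxnb1, had 599 transgenic and 586 WT reads with a ratio of 1.0 (0.895 to 1.13). The ratio of Sema4g was 0.795 (0.706 to 0.895) times that of Sema4b, a pair also picked after its values were seen.

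Class 5 semaphorins, which carry thrombospondin repeats, were the ligand class with a higher sum, 171 CPM in the transgenic library against 153 CPM in WT, a ratio of 1.12 (1.06 to 1.18). Sema5b (chr16:35541145-35664732), a repellent of cortical axons, had 2009 reads in the transgenic library against 1700 in WT. At 112 transgenic against 96.9 WT CPM it was 1.16-fold higher (1.09 to 1.24), the largest ratio among members with more than 100 reads in each library. Sema5a had 1047 transgenic and 985 WT reads with a ratio of 1.04 (0.956 to 1.14). The ratio of Sema5b was 1.11 (0.996 to 1.24) times that of Sema5a, an interval that spans 1.

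Class 6 semaphorins, transmembrane proteins that act as ligands and as receptors, were split. Sema6a (chromosome 18), a ligand of Plxna2 and Plxna4 that guides granule cells and corticospinal axons, had 1203 reads in the transgenic library against 1022 in WT. It stood at 67.4 transgenic against 58.2 WT CPM, 1.16-fold higher (1.06 to 1.26). Sema6d (chr2:124089969-124667770), a ligand of Plxna1, had 1552 transgenic and 1332 WT reads, 86.9 transgenic against 75.9 WT CPM, and was 1.14-fold higher (1.06 to 1.23). The remaining members of the class went the other way. Sema6b (chr17:56123085-56140343), a ligand of Plxna4, had 1536 transgenic and 1871 WT reads, 86.0 transgenic against 107 WT CPM, and was 1.24-fold lower (1.16 to 1.33). Sema6c (chr3:95160457-95174024) had 4383 transgenic and 4884 WT reads, 245 transgenic against 278 WT CPM, and was 1.13-fold lower (1.09 to 1.18). The ratio of Sema6a was 1.43 (1.29 to 1.60) times that of Sema6b, and the ratio of Sema6d was 1.30 (1.19 to 1.41) times that of Sema6c. Within the class, Sema6a and Sema6d gave 13.9% (13.1 to 14.6) and 17.9% (17.1 to 18.7) of reads in the transgenic library, against 11.2% (10.6 to 11.9) and 14.6% (13.9 to 15.4) in WT.

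Sema7a (chr9:57940112-57962865), anchored to the membrane by a lipid and known as a ligand of integrin beta 1 and Plxnc1, was lower. It had 1567 reads in the transgenic library against 1844 in WT, 87.7 transgenic against 105 WT CPM, a 1.20-fold difference (1.12 to 1.28).

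Neuropilins, the ligand-binding co-receptors of class 3 semaphorins and of vascular endothelial growth factor, had the lowest ratio of sums of any receptor group. They summed to 144 CPM in the transgenic library against 183 CPM in WT, a ratio of 0.786 (0.746 to 0.828). Nrp1 (chr8:128358604-128503363), the partner of Sema3a, had 545 transgenic and 756 WT reads. At 30.5 transgenic against 43.1 WT CPM it was 1.41-fold lower (1.26 to 1.58), the largest difference of any member with more than 100 reads in each library, and short of 1.5-fold. Nrp2 (chr1:62703285-62818695), the partner of Sema3f, had 2019 transgenic and 2450 WT reads, 113 transgenic against 139.6 WT CPM, and was 1.24-fold lower (1.16 to 1.31). The ratio of Nrp1 was 0.875 (0.770 to 0.993) times that of Nrp2. In bulk tissue, fewer cells of a type and less RNA per cell cannot be told apart. Endothelium also makes Nrp1. Of its 9 markers, 2 had intervals below 1, none above and 7 spanning 1, where 19.2% of all tested genes lay below. The endothelial markers summed to 158 CPM in the transgenic library against 174 CPM in WT. The part of those cells in the difference was not tested.

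A plexins, which pair with neuropilins and also bind class 5 and 6 semaphorins, all had intervals below 1 by small amounts. The share of all tested genes with an interval below 1 was 19.2%. They summed to 883 CPM in the transgenic library against 951 CPM in WT, a ratio of 0.928 (0.908 to 0.949). Plxna3 (chrX:74329066-74344689), the receptor arm for Sema3f, had 4113 transgenic and 4541 WT reads, 230.3 transgenic against 259 WT CPM, and was 1.12-fold lower (1.08 to 1.17). It is X-linked, and the libraries differ in sex content. Plxna1 (chr6:89316314-89362620) had 2869 transgenic and 3115 WT reads, 161 transgenic against 178 WT CPM, and was 1.11-fold lower (1.05 to 1.16). Of its exon bases, 10.7% overlap the antisense gene Gm26811, which had 7 reads in the transgenic library against 6 in WT. Plxna2 (chr1:194618218-194816869), a receptor of Sema6a and the most read member, had 6158 transgenic and 6297 WT reads and was 1.04-fold lower (1.01 to 1.08). Plxna4 (chr6:32144268-32588192), a receptor of Sema3a and Sema6a, had 2630 transgenic and 2739 WT reads and was 1.06-fold lower (1.0 to 1.12). The intervals of Plxna2 and Plxna4 spanned 1 with TMM or RLE scaling. Plxna2 held 39.0% (38.3 to 39.8) of A plexin reads in the transgenic library against 37.7% (37.0 to 38.5) in WT. These intervals overlap, but the shares were not compared directly.

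The B, C and D plexins were mixed, with Plxnd1 higher, Plxnb2 slightly lower and the intervals of Plxnb1 and Plxnc1 spanning 1. Plxnd1 (chr6:115954811-115995005), the receptor of Sema3e in vessels and in some neurons, had 1876 reads in the transgenic library against 1693 in WT. At 105 transgenic against 96.5 WT CPM it was 1.09-fold higher (1.02 to 1.16), and it was the only receptor whose interval lay above 1. Its ratio was 1.22 (1.13 to 1.32) times that of Plxna3 and 1.54 (1.35 to 1.75) times that of Nrp1. Plxnc1, the receptor of Sema7a, had 873 transgenic and 810 WT reads with a ratio of 1.06 (0.961 to 1.17). Plxnb1, the receptor of Sema4d, had 3487 transgenic and 3406 WT reads with a ratio of 1.01 (0.959 to 1.06). Plxnb2 (chr15:89155549-89171120), the receptor of Sema4c and needed for neural tube closure in mouse, had 4725 transgenic and 4838 WT reads, 265 transgenic against 276 WT CPM, and was 1.04-fold lower (1.0 to 1.09). That interval spanned 1 under either other scaling. Plxnb3 was too low to compare. In all, 8 pairs of members were set against each other in this way, picked after their values were seen.

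Plxdc1 and Plxdc2 are single-pass membrane proteins first known from tumour endothelium and are not plexins. Plxdc2 (chr2:16356304-16755839) had 61 reads in the transgenic library against 89 in WT, 3.42 transgenic against 5.07 WT CPM, and was 1.49-fold lower (1.06 to 2.09). Plxdc1 (chr11:97923238-97986444) was under the minimum mean, with 2 reads in the transgenic library against 10 in WT, a ratio of 0.197 (0.021 to 0.922). Pericyte and meningeal markers were also lower in sum: 4 of 7 tested intervals lay below 1 and 1 above, and the list summed to 87.6 CPM in the transgenic library against 111 CPM in WT. Among those markers Col1a2 had 74 transgenic and 185 WT reads, and Col1a1 31 transgenic and 96 WT. Foxc1, the marker with an interval above 1, had 78 transgenic and 47 WT reads. Of the choroid plexus list, 5 of 6 tested intervals lay below 1 and none above. Of all tested genes, 19.2% had intervals below 1 and 16.5% above. The part of these cell types in the low reads of Plxdc1, Plxdc2 and Sema3b was not tested.

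**Figure D3:**
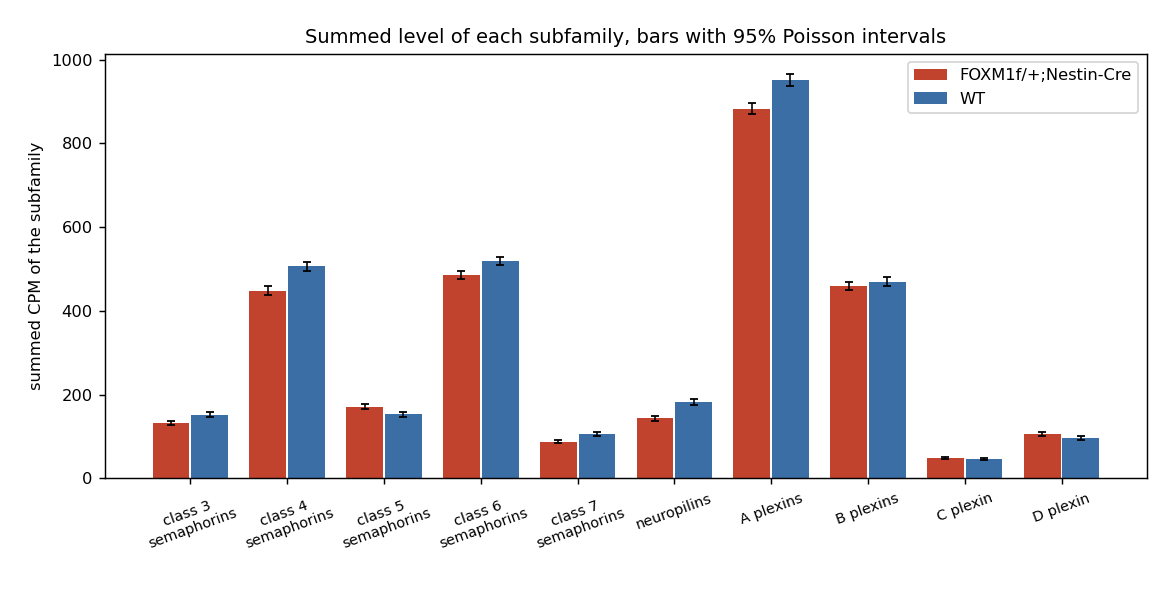
Summed CPM of each subfamily in the FOXM1f/+;Nestin-Cre library (left bar of each pair) and the WT library (right bar), with 95% Poisson intervals as error bars. Neuropilins show the gap of 144 transgenic against 183 WT CPM, and class 5 semaphorins and the D plexin are higher in the transgenic library.

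Known ligands and receptors were also set side by side, with no test of any pair. Sema3a and Sema3f had ratios of 0.909 and 0.863 beside 0.708 and 0.810 for Nrp1 and Nrp2. All 4 ratios were below 1, but the interval of Sema3a spanned 1. Sema3e at 0.768 stood beside Plxnd1 at 1.09, but with 50 transgenic and 64 WT reads the interval of the ligand reached 1.13. Sema3f also stood beside Plxna3 at 0.890. Sema4c at 0.901 and Plxnb2 at 0.960 were both below 1, as were Sema6b at 0.807 and Plxna4 at 0.943. With TMM or RLE scaling the intervals of Plxnb2 and Plxna4 spanned 1. Sema6a at 1.16 stood beside its receptors Plxna2 at 0.961 and Plxna4 at 0.943, whose intervals spanned 1 with TMM or RLE scaling. Sema6d at 1.14 stood beside Plxna1 at 0.905, with intervals on opposite sides of 1 at every scaling tried. Sema7a at 0.835 stood beside Plxnc1 at 1.06, whose interval spanned 1. Sema4d and Plxnb1, at 1.0 and 1.01, both spanned 1. Over all semaphorins the sum was 1326 CPM in the transgenic library against 1436 CPM in WT, a ratio of 0.923 (0.907 to 0.940). For plexins and neuropilins it was 1640.3 transgenic and 1747 WT CPM, a ratio of 0.939 (0.924 to 0.954). Plexin reads from A plexins made up 59.0% (58.4 to 59.6) in the transgenic library against 60.8% (60.2 to 61.4) in WT, and the share from Plxnd1 was 7.02% (6.71 to 7.33) of transgenic and 6.17% (5.89 to 6.46) of WT reads.

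Partners and transducers of semaphorin signalling were described from a list of 57 genes that are not members, and all 57 passed the minimum. By the interval, 27 lay below 1 and 9 above, where 19.2% and 16.5% of all tested genes did. Their median log2 ratio was -0.09. At 1.5-fold, 1 was higher and 4 were lower, where 2.53% and 5.23% of all tested genes were. Rnd2, a small GTP-binding protein that binds plexins and acts in migration of new cortical neurons, had 5621 reads in the transgenic library against 3844 in WT. At 315 transgenic against 219 WT CPM it was 1.44-fold higher (1.38 to 1.5), opposite to most of the list. Erbb2, a receptor kinase that associates with B plexins, had 303 transgenic and 192 WT reads and was 1.55-fold higher (1.29 to 1.87). The actin-severing cofilin Cfl1 was 1.06-fold higher (1.04 to 1.07), and the neuropilin-binding adaptor Gipc1 1.14-fold (1.08 to 1.21). Rnd3, a relative of Rnd2, was 1.14-fold higher (1.08 to 1.21). Dpysl2, a collapsin response mediator downstream of Sema3a, was 1.05-fold higher (1.02 to 1.08).

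The lower side of that list held other mediators of the Sema3a response. Crmp1 had 22977 reads in the transgenic library against 25766 in WT and was 1.14-fold lower (1.12 to 1.16). Its relatives Dpysl3 and Dpysl5 were 1.10-fold (1.09 to 1.12) and 1.11-fold (1.09 to 1.14) lower, so members of the collapsin response mediator family did not share one direction. Rac1, a GTPase that plexins bind, had 3519 transgenic and 4468 WT reads and was 1.29-fold lower (1.24 to 1.35). Cdk5r2, an activator of the kinase Cdk5, had 749 transgenic and 1166 WT reads and was 1.58-fold lower (1.44 to 1.74). The adhesion molecule L1cam, which forms a complex with Nrp1, was 1.19-fold lower (1.14 to 1.24). L1cam is X-linked, and the libraries differ in sex content. The other genes at least 1.5-fold lower were Micall1 (231 transgenic and 358 WT reads), Mical2 (111 transgenic and 174 WT), a relative of the Mical1 oxidase that acts on actin, and Met (24 transgenic and 49 WT), a receptor kinase that associates with B plexins. These 3 were named after their values were seen.

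Other guidance families were described in the same way. Of 39 Eph, ephrin, Slit, Robo and netrin genes, 38 were tested, and the median log2 ratio was -0.03. Among these 38, 11 had intervals below 1 and 5 above, where 19.2% and 16.5% of all tested genes did. The 39 genes summed to 2592 CPM in the transgenic library against 2633 CPM in WT, a ratio of 0.985 (0.972 to 0.998). Ratios were above 1 for 10 of 13 Eph receptors, where 48.4% of all tested genes were. They were below 1 for 6 of 8 ephrins and 8 of 10 netrins and netrin receptors, where 51.6% were. Of the Eph receptors 3 intervals lay above 1 and 3 below, and of the ephrins 1 above and 1 below. Of the netrins and netrin receptors, 0 lay above and 4 below. Semaphorins had a median of -0.18 and plexins with neuropilins -0.07. No test of the difference between the families was made, and no difference is called particular to semaphorins.

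Marker lists of cell types differed in direction. For comparison, 19.2% of all tested genes had intervals below 1 and 16.5% above. All 7 apical progenitor markers had ratios above 1, 5 with intervals above 1, and they summed to 2186 CPM in the transgenic library against 1787 CPM in WT. All 4 basal progenitor markers had intervals above 1, with sums of 597 transgenic and 488 WT CPM. All 6 neuronal markers had intervals below 1, with sums of 6222 CPM in the transgenic library against 6702 CPM in WT, a ratio of 0.928 (0.921 to 0.936). Upper-layer neuron markers had 4 of 6 intervals below 1, with sums of 1238 transgenic and 1362 WT CPM. Deep-layer neurons, interneurons and Cajal-Retzius cells had ratios of summed markers of 1.01 (0.993 to 1.03), 1.0 (0.981 to 1.02) and 0.984 (0.945 to 1.02). Oligodendrocyte precursor and microglial markers had 4 of 6 and 3 of 5 intervals below 1, while erythroid markers had 4 of 5 above, with sums of 662 CPM in the transgenic library against 316 CPM in WT. No marker of any list was at 0 in either library. The part of cell makeup in the ratios of semaphorins and plexins was not tested.

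**Figure D4:**
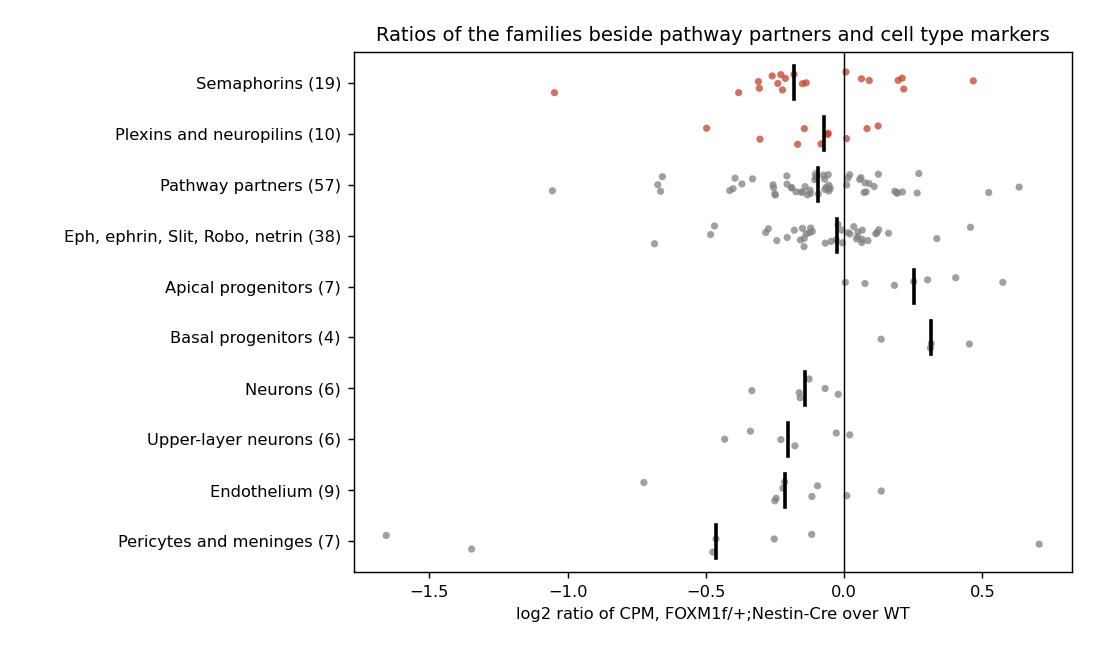
Log2 ratio of CPM, FOXM1f/+;Nestin-Cre over WT, for each tested gene (points) of the semaphorins, of the plexins and neuropilins, and of other lists, with the number of genes in parentheses and the median as a black bar. Medians are -0.18 for semaphorins and -0.07 for plexins with neuropilins, between -0.46 for pericytes and meninges and 0.31 for basal progenitors.

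Of the 33 members, 2 were marked as significant in the authors' deposited table, Sema3b and Plxdc1, both lower in the transgenic library, where 9.46% of all rows were marked. The fold change in the authors' deposited table was 0.484 for Sema3b and 0.197 for Plxdc1. The value of Plxdc1 rests on 2 transgenic and 10 WT reads.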

How the data were processed

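GEO lists RNA of 4 samples, 2 per genotype, and the deposited table holds 1 column per genotype that names no sample. Libraries were made from 2 ug of total RNA, per the labels' protocols. Per the submitters' processing notes, the tools were TopHat2 2.0.12, HTSeq 0.6.0 and Bowtie2 2.2.3, and the build was mm9. Start and end of 29 of the 33 members equal those in GENCODE M21 (GRCm38), so coordinates are given as GRCm38. Strand setting, annotation and multiple mapping, not given in the sources used here, leave reads of paralogs and antisense partners uncertain. The authors deposited raw read counts, and CPM that equal the count times a constant per column, with 0.5 reads entered for a count of 0. The deposited fold (a ratio of the CPM) and its log2 value are the authors', FOXM1f/+;Nestin-Cre over WT. The deposited p-values compare 1 column with 1 column and were not used.

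Ratios of CPM were computed for genes whose mean over both columns reached 1 CPM, with an exact conditional (Clopper-Pearson) 95% interval for 2 Poisson counts. Shares of reads have exact binomial intervals, and sums exact Poisson ones. All intervals cover counting error only. PCR copies were not marked by molecular identifiers, and the intervals make no allowance for them. A call was a ratio of at least 1.5-fold. The planned edgeR quasi-likelihood fit was not run, since 1 column per genotype gives no replicates. Members, lists and tests were chosen with earlier results of these data known. Named were members with an interval on one side of 1, the most read ones, those next to the call threshold, and up to 6 list genes in each direction by size over counting error. Alternatives were TMM and RLE scaling, other expression minimums, other call rules, another length, and leaving out the Plxdc genes. The interval procedure was tried on simulated Poisson counts only. Those counts hold no spread between animals and no PCR copies, so the trial could not address either. Python 3.11.15, NumPy 2.4.6, pandas 2.3.3, SciPy 1.17.1, Matplotlib 3.10.9, R 4.3.3 and edgeR 4.0.16 were used.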

Additional observations from a re-analysis of the deposited data

How the results depend on the processing

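Scaling by TMM or RLE factors moved the median of all tested genes by 0.02 and 0.03 (log2), and reversed no member. Over all alternatives run the median log2 ratio stayed between -0.17 and -0.12 for all members, -0.20 and -0.16 for semaphorins, and -0.08 and -0.05 for receptors. With no expression minimum 3 members were at least 1.5-fold lower (Sema3b, Plxdc1 and Plxnb3). The share of all genes without a minimum was not computed, and Plxnb3 had 1 transgenic and 2 WT reads. With the minimum raised to 10 CPM none (0) was, where 0.848% of all genes at that level were. By the counting interval alone 4 members were higher and 18 lower, and 9 pathway genes higher and 27 lower. That rule called 16.5% of all tested genes higher and 19.2% lower. With a fold of at least 2, no pathway gene (0) was higher and 1 was lower, where 0.522% and 1.83% of all tested genes were. With the minimum at 10 CPM, 1 of 50 pathway genes reached 1.5-fold higher and 2 reached 1.5-fold lower. At that level 0.335% of all genes were higher and 0.848% lower by that much. No paired analysis was possible because the table has 1 column per genotype, and leaving out a replicate was not run for the same reason. Depth limits Plxnb3, Plxdc1 and Sema3d, with 16 reads or fewer in each library, to ratios that a few reads decide.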

Other observations

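Antisense rows beside Plxna4 were near the floor of detection. Plxna4os1 had 0 reads in the transgenic library against 5 in WT, and Plxna4os2 had 5 transgenic and 1 WT read. The antisense gene Gm7628, which shares 257 exon bases with Plxnb1, had 44 reads in the transgenic library against 73 in WT, while Plxnb1 itself had 3487 transgenic and 3406 WT reads.

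Among the other guidance families, Epha3, a receptor of A-type ephrins, had 1691 reads in the transgenic library against 1317 in WT, a ratio of 1.26 (1.17 to 1.36). Epha8 had 205 transgenic and 324 WT reads and was 1.61-fold lower. It was the only gene past 1.5-fold among the 38 of those families that passed the expression minimum. For comparison, 5.23% of all tested genes were at least 1.5-fold lower and 2.53% higher. Epha1, under the minimum, had 15 transgenic and 6 WT reads, a ratio of 2.46 (0.901 to 7.73). Robo3, a receptor that acts in midline crossing, had 278 transgenic and 199 WT reads, a ratio of 1.37 (1.14 to 1.65). These genes were picked after their values were seen.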
